A study of Mus musculus with 2 samples.

Results

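Toll-like receptors recognise molecules of microbes and of damaged cells, and 8 genes of that system are described here across bone marrow cell classes: Cd14, Ly96, Tlr2, Tlr4, Tlr7, Tlr9, Tlr13 and Myd88. They were chosen by symbol, as pattern recognition receptors with the proteins that deliver ligand to them and the adaptor that they share. All 8 were found among the 31053 genes of the deposited feature lists, each with 1 entry.

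The marrow came from C57BL/6 mice of 6 months with the disease label atherosclerosis, and single cells were captured with 10x Genomics chemistry that reads the 3′ ends of transcripts. Both groups carried Apoe(-/-), the loss of apolipoprotein E that raises plasma cholesterol. One group was Apoe(-/-), Itgb3(-/-), which lacks integrin β3 by label, and the other Apoe(-/-), Itgb3(+/+). Each group was 1 library, called the null-labelled library and the control-labelled one below, and the number of animals behind either is not stated in the sources used here. The comparison asks how the level of each gene in each cell class differed between the 2 genotypes. With 1 library per group there is no replicate and no test between genotypes. All intervals are 95% intervals for counting error only, and a difference between the libraries cannot be told apart from a difference between their preparation.

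Lipopolysaccharide of Gram-negative bacteria is passed by CD14 to the complex of TLR4 with the protein encoded by Ly96. TLR2 recognises bacterial lipoproteins at the cell surface, while TLR7, TLR9 and TLR13 sit in endosomes and recognise single-stranded RNA, unmethylated CpG DNA and bacterial ribosomal RNA. Every mouse Toll-like receptor except TLR3 can signal through MyD88, which leads to NF-kB and, from endosomes in plasmacytoid dendritic cells, to interferon regulatory factors. In marrow these receptors are known for their place on monocytes, neutrophils and B cells and for steering emergency myelopoiesis.

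After filtering, 2903 null-labelled cells held 33499181 UMIs (unique molecular identifiers, counts of single transcript molecules) at a median of 9311 per cell, and 8595 control-labelled cells held 59016542 at a median of 4808. The libraries shared 6 cell barcodes among the kept cells. Hemoglobin transcripts in T-like cells, which should lack them, made up 0.119% of UMIs in the null-labelled and 5.81% in the control-labelled library, beside 19.0% and 13.9% of UMIs in the whole libraries. The quotient of the 2 shares, taken as an estimate of free RNA, was 0.626% and 41.9%, and an alternative subtracts it. Itgb3 itself was counted at 7.43 CPM (UMIs of a gene per 1000000 UMIs of the class or library) and 23.6 CPM, with 249 and 1391 UMIs. Whether the counted 3′ sequence lies outside the deleted one was not established here, so the genotype stands as a label. In megakaryocyte-like cells, 28 and 30 in number, Itgb3 was at 101.8 CPM and 2025 CPM. Xist was at 1 and 6 UMIs and Ddx3y at 1809 and 2389 UMIs, so transcripts of the Y chromosome were present in both libraries, which bears on the X-linked genes Tlr7 and Tlr13. Clusters were rebuilt here and named from marker genes, giving classes written as "monocyte-like" and so on. Of 106 sub-clusters, 101 drew at least 90% of their cells from 1 library, so each class below consists of different sub-clusters in the 2 libraries. Sub-clusters left unnamed held 17.9% of null-labelled and 9.61% of control-labelled cells.

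All 8 classes compared had at least 100 cells in both libraries. In the 7 with a marker list of their own, each of its 8 or 9 genes was higher inside the class than in the other cells of its library. The mature neutrophil-like class nevertheless differed in stage between the libraries. Its 9 mature neutrophil markers summed to 13909 CPM in null-labelled against 55413 CPM in control-labelled cells, while the 8 immature neutrophil markers summed to 97001 CPM and 22207 CPM. It was 159 cells of sub-cluster 3.1 in the null-labelled library and 1575 cells of sub-clusters 0.0 to 0.2 and 1.0 to 1.2 in the control-labelled library. The eighth class, neutrophil-like cells with markers of both stages, was sub-cluster 3.2 with 145 cells and sub-cluster 11.0 with 216 cells. This class differed in stage between the libraries too. Its mature neutrophil markers summed to 6350 CPM in null-labelled and 27980 CPM in control-labelled cells, and its immature ones to 145383 CPM and 86992 CPM. The part of these stage differences in the ratios below was not tested. Immature neutrophil-like cells (322 and 1067) came from cluster 3 in the null-labelled library and from clusters 6, 11 and 16 in the other. Monocyte-like cells (125 and 512) came from cluster 20 and from cluster 5. Mature B-like cells (273 and 847) were mainly of clusters 15 and 14 against 13, 8 and 35, and B precursor-like cells (317 and 637) mainly of cluster 14 against 2, 19 and 28. T-like cells (133 and 200) were mainly of cluster 25 against 23, and erythroid-like cells (607 and 1439) mainly of clusters 12 and 21 against 4, 7 and 10.

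The promoter of Myd88 is shown because this gene was higher in the null-labelled library in the widest range of classes, and that of Tlr2 because its level was close to equal in monocyte-like cells before thinning. The RefSeq promoter table (GRCm38.p6, 250 bases before to 50 after a gene's start) held 4 of the 8 genes. Capitals mark matches to the motifs searched, and each run is written 5′ to 3′ on the gene's strand, which is the minus strand for both.
Myd88: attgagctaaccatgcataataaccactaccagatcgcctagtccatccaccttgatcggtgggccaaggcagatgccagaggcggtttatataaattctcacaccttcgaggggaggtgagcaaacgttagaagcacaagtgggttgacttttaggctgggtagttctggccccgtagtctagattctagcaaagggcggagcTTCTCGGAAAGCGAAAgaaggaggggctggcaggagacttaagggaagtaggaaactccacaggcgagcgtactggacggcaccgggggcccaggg
Tlr2: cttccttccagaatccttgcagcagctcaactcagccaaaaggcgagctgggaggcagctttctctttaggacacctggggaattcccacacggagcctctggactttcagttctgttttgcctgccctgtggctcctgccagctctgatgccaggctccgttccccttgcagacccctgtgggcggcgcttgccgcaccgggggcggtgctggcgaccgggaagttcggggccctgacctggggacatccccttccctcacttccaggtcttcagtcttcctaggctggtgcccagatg
The Myd88 run lies at chr9:119339969-119340268 and the Tlr2 run at chr3:83841559-83841858.

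The 4 motifs searched, on both strands, were those of NF-kB, the interferon-stimulated response element, STAT factors (TTCNNNGAA) and PU.1, each in 1 narrow form, so other forms of a site were not searched. The Myd88 window held the response element at 40 to 31 bases before the start and the STAT motif at 46 to 38 bases before it, with the 2 matches overlapping. Among 32851 promoters of the same length, 3.44% held the response element and 8.30% the STAT motif. The Tlr2, Tlr9 and Tlr13 windows had no match to these forms; the NF-kB form was found in 1.63% and PU.1 in 0.426% of all promoters. The RefSeq starts of Myd88, Tlr2 and Tlr13 lie inside the spans that the GENCODE annotation gives these genes. A match describes letters only.

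A gene counted as measured in a class at 10 CPM or more in either library with at least 30 UMIs over both, and as called when its CPM ratio was 2-fold or more with an interval that did not span 1. Calls among the 8 genes were in 1 direction only, higher in the null-labelled library, and went to Cd14, Tlr7 and Myd88. Over all cells, 3 of 4 measured members were called higher and 0 lower, where 6.44% of all measured genes were called higher and 12.8% lower. Mature neutrophil-like cells gave 3 of 7 higher against 24.5% of all genes, and immature neutrophil-like cells 3 of 3 against 8.29%. Neutrophil-like cells with markers of both stages gave 3 of 5 against 18.6%. Monocyte-like cells gave 2 of 7 against 12.5% (19.8% lower), B precursor-like cells 1 of 3 against 10.0%, and mature B-like cells 2 of 3 against 8.69%. T-like and erythroid-like cells had 1 measured member each, Myd88, called higher where 9.12% and 7.37% of all genes were. None of the 8 genes was called lower in these classes, where the share of all genes called lower ran from 10.7% in T-like to 49.7% in erythroid-like cells, whose median gene had a log2 ratio of -0.99.

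**Figure D1:**
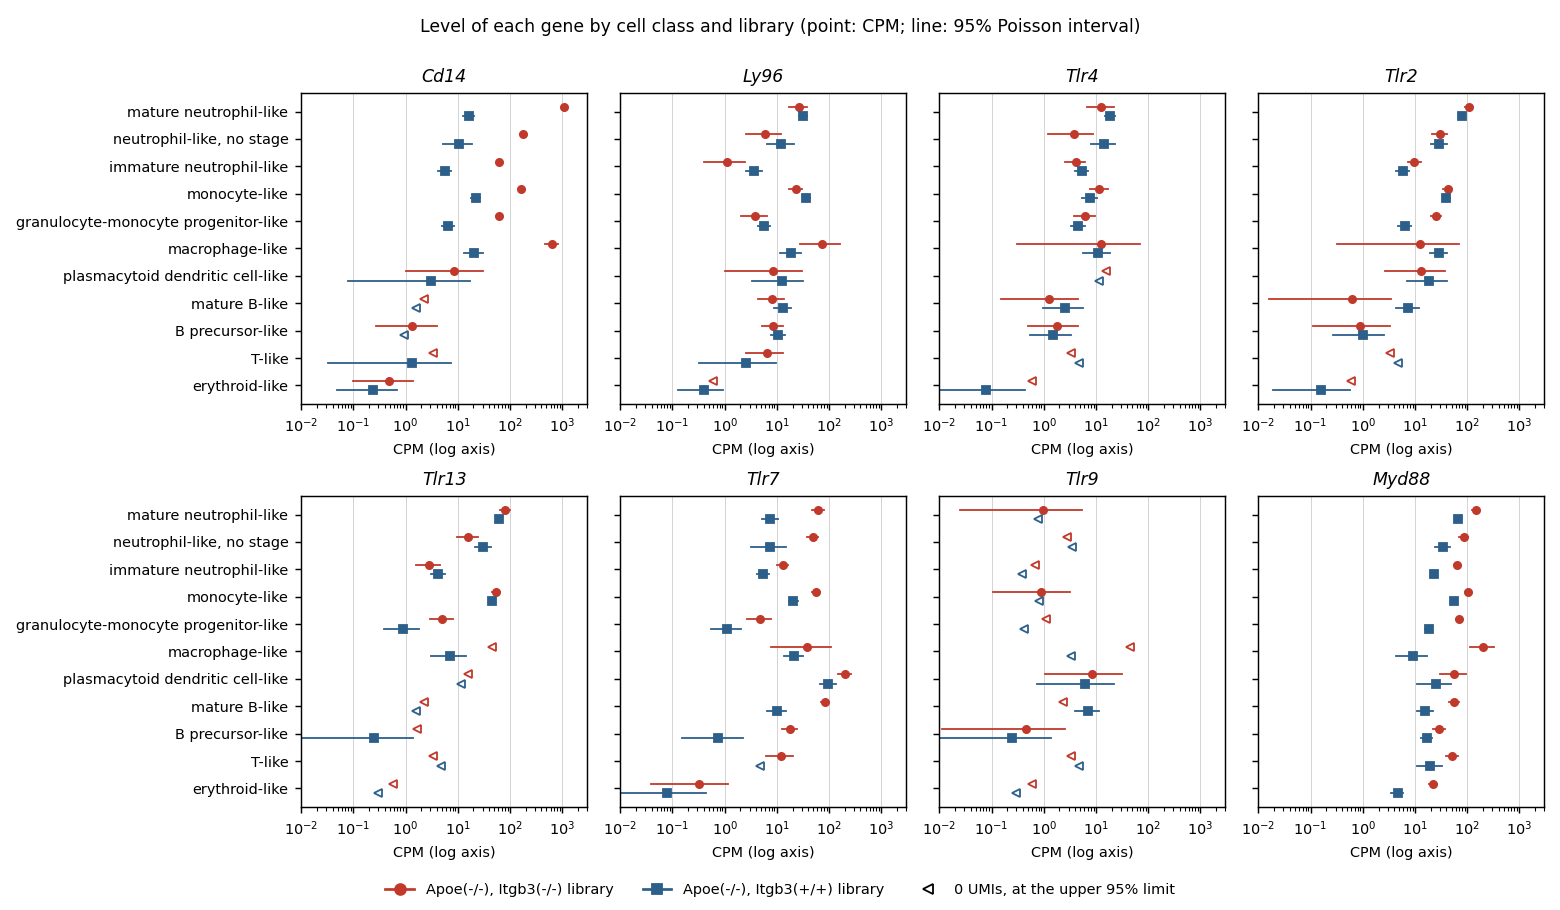
Level of each gene in CPM (log axis) in 11 cell classes of the null-labelled (red circles) and control-labelled (blue squares) library; lines are 95% Poisson intervals and open triangles mark 0 UMIs at the upper limit of the interval. Cd14 in mature neutrophil-like cells stands at 1086 CPM against 16.3 CPM, whereas Tlr2 in monocyte-like cells stands at 41.8 CPM and 39.9 CPM.

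Cd14, which hands lipopolysaccharide to TLR4 (ENSMUSG00000051439, chromosome 18 from 36725067 to 36726798, minus strand, mm10), was higher in every neutrophil-like and monocyte-like class of the null-labelled library. In mature neutrophil-like cells 1113 UMIs gave 1086 CPM (1023 to 1152) in the null-labelled library. The control-labelled library had 76 UMIs and 16.3 CPM (12.8 to 20.4) in that class. The null-labelled level was 66.6-fold higher (52.8 to 85.2), the widest gap of any of the 8 genes among ratios with more than 3 UMIs on both sides. These 159 cells, 5.48% of the library, held 47.2% of its Cd14 UMIs.

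The neutrophil-like stages differed in how far apart the libraries were for Cd14. Immature neutrophil-like cells held 62.2 CPM against 5.68 CPM in the control-labelled cells, 10.9-fold higher (8.21 to 14.8). Those with markers of both stages held 177 CPM and 10.3 CPM, 17.1-fold higher (9.41 to 34.8). In both libraries the level was highest in the mature class and lowest in the immature one. The control-labelled levels were 16.3 CPM in the mature class, 10.3 CPM with both stages and 5.68 CPM in the immature class. There the mature class was not apart from the one with both stages (ratio 1.58, 0.833 to 3.29).

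Monocyte-like cells, the class in which Cd14 is a textbook marker, held 163 CPM (146 to 181) and 22.0 CPM (17.9 to 26.8), a 7.39-fold higher value (5.91 to 9.31). In these cells immature neutrophil markers summed to 9477 CPM and 3166 CPM and macrophage markers to 279 CPM and 99.7 CPM, and their part in the result was not tested. In the control-labelled library they had the highest level of all classes, not apart from macrophage-like cells at 20.7 CPM and mature neutrophil-like cells at 16.3 CPM. In the null-labelled library the order was another, with mature neutrophil-like cells first and macrophage-like cells at 631 CPM second. Monocyte-like cells came after neutrophil-like cells with both stages but were not apart from them (ratio 1.09, 0.920 to 1.29). That macrophage-like class was 44 cells of a median of 920.5 UMIs, far below its library's median, and was not compared. Granulocyte-monocyte progenitor-like cells, also below the cell minimum for a comparison, stood at 61.0 CPM and 6.65 CPM.

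Sub-clusters did not overlap for Cd14 in any of these classes. The mature neutrophil-like class and the one with both stages were 1 null-labelled sub-cluster each. The share of all genes without such overlap was not computed, here or for Tlr7 and Myd88 below, so non-overlap is description only. The 2 null-labelled monocyte-like sub-clusters of at least 20 cells were at 201 CPM and 110 CPM, and the 4 control-labelled ones between 11.5 CPM and 42.5 CPM. Among immature neutrophil-like cells the 3 null-labelled sub-clusters ran from 44.2 CPM to 77.7 CPM and the 9 control-labelled ones from 2.28 CPM to 9.05 CPM. All 6 control-labelled mature neutrophil-like sub-clusters lay between 5.29 CPM and 37.6 CPM.

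Cells were also compared at equal depth by thinning each to 1000 UMIs. A Cd14 UMI was then seen in 69 of 155 null-labelled mature neutrophil-like cells (44.5%, 36.5% to 52.7%) and in 30 of 1516 control-labelled ones (1.98%, 1.34% to 2.81%). Without thinning the shares were 83.6% and 4.32%, at median depths of 6373 and 2677 UMIs. Monocyte-like cells with a UMI made up 12% and 1.96% at equal depth. Erythroid-like cells, which should lack the transcript, gave 0.334% and 0.0700%, and T-like cells 0 of 133 and 0 of 198, which allows up to 2.26% and 1.52%. In the null-labelled library the intervals of the mature neutrophil-like and monocyte-like shares lay above these limits. In the control-labelled library the mature neutrophil-like and monocyte-like shares were not separable from what 0 of 198 T-like cells allows. The 0.659% of immature neutrophil-like cells was below that limit. These control-labelled shares were all above the 0.0700% of erythroid-like cells. In CPM, mature neutrophil-like and monocyte-like cells of that library stood at 16.3 and 22.0 against 0.240 in erythroid-like cells.

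Markers of other cells were examined beside Cd14 in the mature neutrophil-like class. The monocyte markers Ccr2, F13a1, Fn1 and Cx3cr1 were at 0 UMIs in the null-labelled cells, and the monocyte list summed to 1391 CPM against 838 CPM in the control-labelled ones. The 9 macrophage markers summed to 15.6 CPM and 48.5 CPM. The part of the monocyte list, and of the higher immature neutrophil markers given above, in the Cd14 result was not tested. The interferon-response list, whose genes are induced by interferons, summed to 17951 CPM and 1973 CPM in the same cells, and its part was not tested either. The 5 null-labelled cells with the most Cd14 held 24.3% of its UMIs in the class, and the highest cell had 85.

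**Figure D2:**
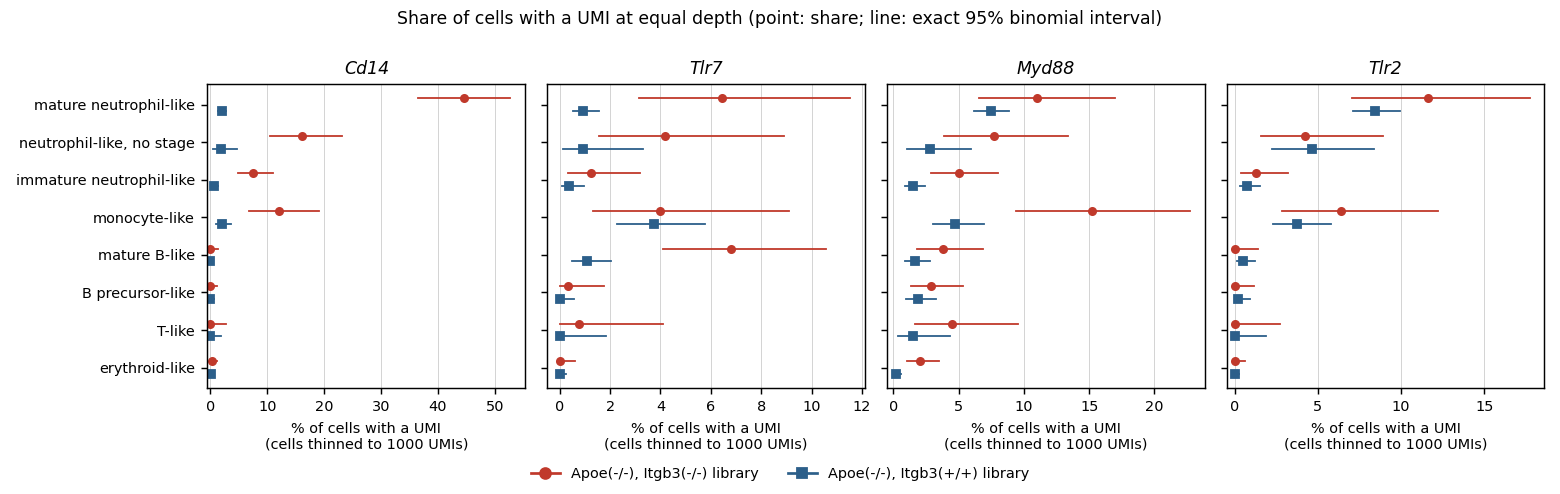
Share of cells with at least 1 UMI of Cd14, Tlr7, Myd88 and Tlr2 after each cell was thinned to 1000 UMIs, by class and library; points are shares in percent and lines exact 95% binomial intervals. For Cd14 the null-labelled mature neutrophil-like cells reach 44.5% and the control-labelled ones 1.98%, while for Tlr7 the monocyte-like cells of both libraries lie together, at 4% and 3.73%.

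Ly96 and Tlr4, the other genes of the lipopolysaccharide receptor, were called higher in no class. Ly96 (ENSMUSG00000025779, chromosome 1 from 16688051 to 16709611, plus strand) had 52 UMIs and 23.4 CPM (17.5 to 30.7) in null-labelled monocyte-like cells and 169 UMIs and 36.9 CPM (31.5 to 42.9) in control-labelled ones, 1.58-fold lower (1.15 to 2.19). This was under the 2-fold limit, and so were its ratios of 0.824 (0.526 to 1.25) in mature neutrophil-like, 0.619 (0.296 to 1.22) in mature B-like and 0.808 (0.444 to 1.42) in B precursor-like cells. All 4 measured ratios of Ly96 were below 1, and the intervals of 3 spanned 1. The direction turned with cells thinned to 1000 UMIs, to log2 ratios of 0.89 in monocyte-like and 0.82 in mature neutrophil-like cells. Immature neutrophil-like cells had 6 and 36 UMIs, a value 3.32-fold lower (1.38 to 9.63) that fell short of the minimum level for a call.

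Tlr4, the signalling receptor (ENSMUSG00000039005, chromosome 4 from 66827584 to 66930284, plus strand), was counted in few molecules, with 98 and 268 UMIs over all cells at 2.93 CPM and 4.54 CPM. Mature neutrophil-like cells were at 12.7 CPM and 18.9 CPM, a ratio of 0.672 (0.344 to 1.21). Monocyte-like cells were at 11.7 CPM and 7.63 CPM, a ratio of 1.53 (0.886 to 2.62). Both intervals spanned 1, and they reach from a 2.91-fold lower to a 2.62-fold higher value, so neither ratio was called. In mature neutrophil-like cells Tlr4 was called lower with TMM scaling (log2 ratio -1.02 in place of -0.57) and without the 5 cells with most of its UMIs (-1.09). Neutrophil-like cells with markers of both stages had 5 and 15 UMIs, 3.74-fold lower (1.29 to 13.1), below the minimum of 30 UMIs. By order of level, mature neutrophil-like cells came first in both libraries, and the class next to them (macrophage-like in the null-labelled library, neutrophil-like with both stages in the control-labelled one) was not apart from them beyond counting error.

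Detection in the same cell was sparse. At 1000 UMIs per cell no cell of the monocyte-like or neutrophil-like classes held a UMI of Cd14, Ly96 and Tlr4 together in either library, and without thinning 5 null-labelled and 4 control-labelled monocyte-like cells did. Among the 155 null-labelled mature neutrophil-like cells, Cd14 and Tlr2 were seen together in 13 cells, where the product of the single shares gives 8.01, and Cd14 with Ly96 in 4 cells against 4.01. In the 1516 control-labelled cells Cd14 and Tlr2 met in 5 cells against 2.53.

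Tlr2, the lipoprotein receptor (ENSMUSG00000027995, chromosome 3 from 83836272 to 83841767, minus strand), had its highest level in mature neutrophil-like cells of both libraries, apart from the monocyte-like cells that followed. Mature neutrophil-like cells were at 108 CPM (89.1 to 130) against 80.9 CPM (72.9 to 89.5) in control-labelled cells, a ratio of 1.34 (1.07 to 1.66). Monocyte-like cells were at 41.8 CPM and 39.9 CPM, a ratio of 1.05 (0.808 to 1.35), and neutrophil-like cells with both stages at 30.2 CPM and 29.2 CPM, a ratio of 1.04 (0.632 to 1.71). These intervals leave out a 2-fold difference in either direction. With cells thinned to 1000 UMIs the monocyte-like log2 ratio went from 0.07 to 0.96, with a UMI in 8 of 125 and 19 of 509 cells. With TMM scaling the mature neutrophil-like log2 ratio went from 0.42 to -0.02. T-like cells had 0 UMIs in both libraries and erythroid-like cells 0 and 2. Mature B-like cells held 1 UMI against 17, a ratio of 0.0841 (0.00201 to 0.536), too few for a call.

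Over all cells Tlr2 was at 12.99 CPM and 13.47 CPM, a ratio of 0.964 (0.856 to 1.08), although mature neutrophil-like cells were 5.48% of the null-labelled and 18.3% of the control-labelled cells. With the null-labelled classes weighted to the control-labelled makeup, the ratio was 1.41. The same weighting took Cd14 over all cells from a 12.2-fold (10.9 to 13.7) to a 23.4-fold higher value, and Tlr7 from 4.35 to 4.45.

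Tlr13, the receptor for bacterial ribosomal RNA (ENSMUSG00000033777, chromosome X from 106143204 to 106160493, plus strand), had 42.5% of its null-labelled and 35.6% of its control-labelled UMIs in monocyte-like cells and 29.6% and 48.6% in mature neutrophil-like cells. Mature neutrophil-like cells were at 81.0 CPM and 60.7 CPM, a ratio of 1.33 (1.03 to 1.71), and monocyte-like cells at 53.5 CPM and 45.2 CPM, a ratio of 1.19 (0.938 to 1.49). With TMM scaling the first of these log2 ratios went from 0.42 to -0.03. The monocyte-like one turned from 0.25 to -0.16 with free RNA subtracted and to -1.93 with cells thinned to 1000 UMIs, where 2 of 125 and 30 of 509 cells had a UMI, so no order was read from it. By CPM without thinning both libraries had the same order, mature neutrophil-like, then monocyte-like, then neutrophil-like cells with both stages. Each step was beyond counting error. At 1000 UMIs per cell the last step was not seen in the null-labelled library, with a UMI in 2 of 125 monocyte-like cells and 4 of 143 with both stages. In the class with both stages the level was 15.8 CPM and 31.0 CPM, 1.96-fold lower (1.10 to 3.56), just short of a call. Mature B-like, T-like and erythroid-like cells had 0 UMIs of Tlr13 in both libraries.

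The pattern of Tlr2 and Tlr13 across classes was alike. Over 9 null-labelled and 14 control-labelled classes of at least 50 cells, Tlr13 was among the 3 genes closest to Tlr2, with r of 0.93 and 0.88 for log2(CPM + 10). Cd300a and Pira2, receptors of myeloid cells with inhibitory and activating roles, were the others. The closest to Tlr13 were Pira2, Lrrc25 and Klra2, and the closest to Cd14 were Lrrc25 (0.97 and 0.90), Cd300a and Lst1. Tlr4 was closest to the Fc receptor genes Fcgr3 and Fcgr4 and to Lpcat2, and Ly96 to Ifi204, Slc11a1 and Themis2. These correlations describe classes that share a library and its depth.

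Tlr7, the receptor for single-stranded RNA (ENSMUSG00000044583, chromosome X from 167304929 to 167330558, minus strand), was called higher in the null-labelled library in 6 of the 8 classes. Its highest level was in plasmacytoid dendritic cell-like cells, the cell type known for RNA sensing and interferon release, with 201 CPM (148 to 267) in 22 null-labelled and 97.2 CPM (66.1 to 138) in 61 control-labelled cells. That class came first in both libraries beyond counting error and was too small for a comparison. The rest of the order differed between the libraries, with mature B-like cells second in the null-labelled and macrophage-like cells second in the control-labelled one, but neither was apart from the class after it beyond counting error.

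Mature B-like cells held 136 UMIs and 84.6 CPM (70.9 to 100.03) of Tlr7 in the null-labelled library. The control-labelled cells held 23 UMIs and 10.0 CPM (6.34 to 15.02). The ratio was 8.45 (5.40 to 13.8), and the 2 null-labelled sub-clusters, at 56.5 CPM and 89.1 CPM, lay above all 5 control-labelled ones, the highest of which was at 23.8 CPM. At equal depth 6.82% and 1.08% of these cells had a Tlr7 UMI. The marker lists differed in this class too: mature B markers summed to 1309 CPM and 5151 CPM and B precursor markers to 167 CPM and 1776 CPM, and their part in the Tlr7 and Myd88 ratios was not tested. B precursor-like cells, the earlier stage, had 39 and 3 UMIs, a ratio of 23.2 (7.38 to 117). Of those 39 UMIs, 5 cells held 41.0%. The class also differed inside the library, with 63.3 CPM in sub-cluster 14.3 and 10.3 CPM and 9.72 CPM in 14.0 and 14.1. Without the 5 cells with most UMIs in each library, fewer UMIs were left than the 30 that a call needs.

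Tlr7 was also higher in neutrophil-like cells. The mature class held 62.4 CPM and 7.51 CPM, 8.32-fold higher (5.42 to 12.9), the class with both stages 48.3 CPM and 7.52 CPM, 6.42-fold higher (3.07 to 15.5), and the immature class 13.1 CPM and 5.48 CPM, 2.39-fold higher (1.65 to 3.48). T-like cells had 13 and 0 UMIs, at least 3.03-fold higher against a floor of 3 UMIs, which is under the minimum for a call. Erythroid-like cells had 2 and 1 UMIs.

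Monocyte-like cells were a class in which the Tlr7 difference changed when cells were brought to equal depth. They held 57.1 CPM (47.6 to 68.0) and 20.7 CPM (16.8 to 25.3), 2.76-fold higher (2.10 to 3.64). The sub-clusters overlapped, at 83.8 CPM and 20.3 CPM in the null-labelled and from 1.43 CPM to 106 CPM in the control-labelled library. At 1000 UMIs per cell 4% and 3.73% of the cells had a UMI, and the log2 ratio of the thinned sums was 0.36 in place of 1.46. The pattern of Tlr7 across classes was most like those of Pip4k2a, Mpeg1, which encodes perforin-2, a pore-forming protein of phagocytes, and Kctd12.

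Tlr9, the receptor for CpG DNA (ENSMUSG00000045322, chromosome 9 from 106222598 to 106226883, plus strand), was counted in 10 and 20 UMIs over all cells, too few for a call. Of the control-labelled UMIs, 16 lay in mature B-like cells (6.96 CPM, 3.98 to 11.3) and 2 in plasmacytoid dendritic cell-like cells. The null-labelled library had 0 UMIs in 273 mature B-like cells, at least 3.73-fold lower against a floor of 3 UMIs, and 2 UMIs in plasmacytoid dendritic cell-like cells. Neutrophil-like and erythroid-like cells were taken as classes that should lack it, an assumption that was not tested here. They had 0 UMIs in both libraries, except for 1 UMI in null-labelled mature neutrophil-like cells. With 10 and 20 UMIs over all cells, these low counts do not establish absence. At equal depth 0 of 264 and 3 of 830 mature B-like cells had a UMI, and 0 of 264 allows a share of up to 1.14%, so the libraries were not separable by that measure. Beside the called Tlr7 ratio, the Tlr9 counts in mature B-like cells were thus on the other side of 1.

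Myd88, the adaptor (ENSMUSG00000032508, chromosome 9 from 119335934 to 119341411, minus strand), was the member detected most evenly across classes, and the only one measured in all 8 of them. It overlaps Slc22a14 on the same strand and Acaa1a on the opposite one, so reads from shared sequence could be lost or misassigned. Over all cells it was at 51.6 CPM (49.2 to 54.1) and 21.7 CPM (20.5 to 22.9), 2.38-fold higher (2.22 to 2.56). All 8 ratios were above 1 with intervals that did not span 1, and 6 of them reached 2-fold.

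By class, the Myd88 ratio was widest in erythroid-like cells, at 22.3 CPM and 4.64 CPM, 4.80-fold higher (3.51 to 6.64). Mature B-like cells followed at 55.3 CPM and 15.7 CPM, 3.53-fold higher (2.37 to 5.36), then immature neutrophil-like cells at 62.4 CPM and 23.4 CPM, 2.67-fold higher (2.25 to 3.18), and T-like cells at 52.0 CPM and 19.6 CPM, 2.65-fold higher (1.48 to 5.05). The T-like call was lost with at most 5% mitochondrial UMIs although the log2 ratio there was 1.59 in place of 1.41. Erythroid-like cells held 3 Cd14 UMIs in each library and 0 of Tlr13, so Myd88 was the only member measured there.

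Mature neutrophil-like cells held 144 CPM and 65.4 CPM, 2.21-fold higher (1.80 to 2.69), a call that was lost with TMM scaling between the libraries (log2 ratio 0.70 in place of 1.14), with thinned cells (0.67) and with free RNA subtracted (0.88). Monocyte-like cells held 104 CPM and 54.5 CPM, a ratio of 1.91 (1.59 to 2.30), and B precursor-like cells 28.7 CPM and 16.8 CPM, a ratio of 1.71 (1.19 to 2.44), both short of 2-fold. The monocyte-like ratio passed 2-fold under other choices, such as a log2 ratio of 1.10 with at most 5% mitochondrial UMIs. Sub-clusters of the 2 libraries did not overlap in immature neutrophil-like and mature B-like cells, and they overlapped in monocyte-like cells, at 91.0 CPM and 114 CPM against 33.5 CPM to 97.1 CPM. Across classes Myd88 was most like Mapk14, which encodes the kinase p38α, Mboat7 and Rab7.

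**Figure D3:**
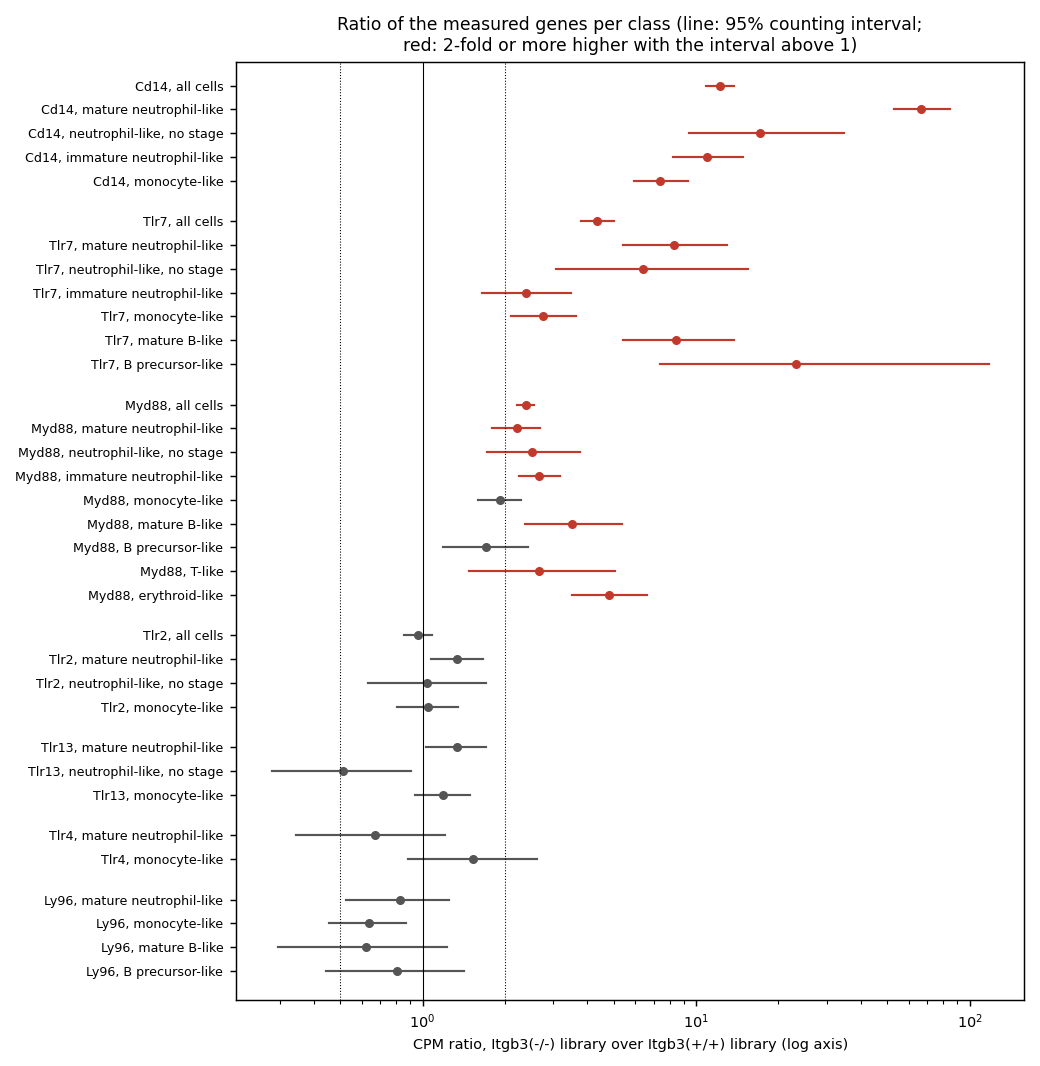
CPM ratio of the null-labelled over the control-labelled library (log axis) for every gene and class with enough UMIs to be measured; lines are 95% counting intervals, dotted lines mark 2-fold in either direction, and red marks ratios called higher. Cd14, Tlr7 and Myd88 lie to the right of 1 in each class, while the ratios of Tlr2, Tlr13, Tlr4 and Ly96 lie between 0.511 and 1.53.

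**Figure D4:**
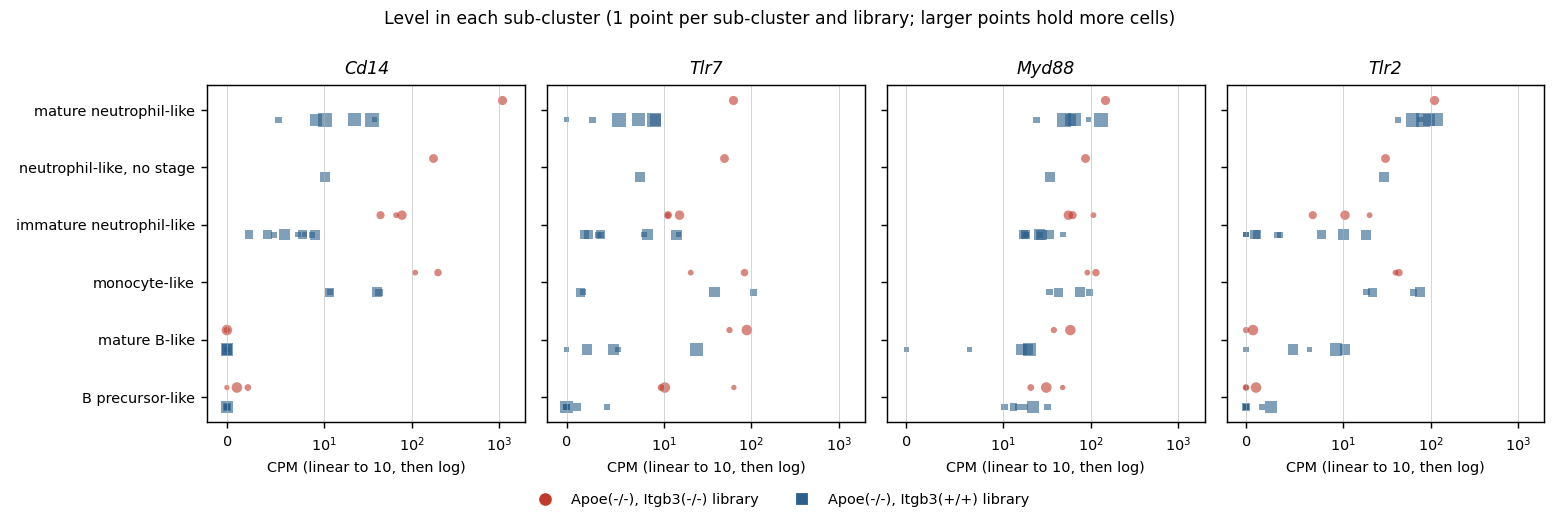
Level of Cd14, Tlr7, Myd88 and Tlr2 in each sub-cluster of at least 20 cells in CPM (linear to 10, then log), by class and library, with larger points for more cells. The Cd14 points of the null-labelled library lie apart from the control-labelled ones in the 4 myeloid rows, whereas the Tlr7 points overlap in monocyte-like cells.

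Genes of the interferon-response list summed to a higher level with the null label in all 8 classes, those without a called Myd88 ratio included. Their list of 18 genes summed to 17988 CPM in null-labelled and 887 CPM in control-labelled erythroid-like cells, 3893 CPM and 389 CPM in mature B-like cells and 16700 CPM and 3581 CPM in monocyte-like cells. The part of this difference in the Myd88 and Tlr7 values was not tested. T-like cells had the smallest gap among the 8 classes, at 2211 CPM and 514 CPM. The median mitochondrial share of mature B-like cells was 6.66% and 6.58%, that of immature neutrophil-like cells 1.10% and 1.09%, that of mature neutrophil-like cells 0.806% and 0.398%, that of monocyte-like cells 2.63% and 3.91%, and that of erythroid-like cells 0.777% and 1.52%.

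Other Toll-like receptors (Tlr1, Tlr3, Tlr5, Tlr6, Tlr8, Tlr11 and Tlr12) were counted at low levels in most classes. Exceptions included Tlr1 at 29.2 CPM in control-labelled mature B-like cells. Tlr12 was at 12.8 CPM (3 UMIs) in null-labelled and 62.7 CPM (20 UMIs) in control-labelled plasmacytoid dendritic cell-like cells, a class too small for a comparison. The few receptors that could be measured in a compared class did not share a direction. Tlr1, a partner of TLR2, was higher in monocyte-like cells, at 15.7 CPM and 3.27 CPM, 4.81-fold, and lower in mature B-like cells, with 3 UMIs against 67, a ratio of 0.0640. Tlr6, the other partner of TLR2, was at 3.90 CPM and 14.4 CPM in mature neutrophil-like cells, 3.68-fold lower. Tlr5, the flagellin receptor, had 0 and 53 UMIs there, at least 3.88-fold lower. The median log2 ratio of those measured was 0.85 in monocyte-like cells (2 genes), where the median over all genes was -0.17, and -1.92 in mature neutrophil-like cells (2 genes, with Tlr5 at its bound), where it was 0.28.

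Accessory and trafficking proteins moved in both directions. In mature B-like cells 4 of 9 measured genes were called lower and 1 higher, where 16.4% of all genes were called lower and 8.69% higher. One of the lower genes was Cd180, a relative of TLR4 on B cells, at 21.1 CPM and 170 CPM, 8.03-fold lower. Unc93b1, which carries the endosomal receptors out of the endoplasmic reticulum, was 2.69-fold higher in immature and 2.70-fold higher in mature neutrophil-like cells and had a ratio of 0.753 in mature B-like cells, the class where Tlr7 was 8.45-fold higher. Ctsl, a protease that cleaves endosomal receptors, was 8.41-fold higher in monocyte-like cells.

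A list of adaptor and signalling genes, not all of them downstream of MyD88, was examined next. In mature neutrophil-like cells 8 of 18 measured genes were called higher and 1 of 18 lower, where 24.5% and 13% of all genes were. The median log2 ratio was 0.79 against 0.28 over all genes. In monocyte-like cells the counts were 5 and 4 of 22 beside 12.5% and 19.8% of all genes, with a median of 0.14 against -0.17, so the share called lower was near that of all genes. Irf7, the transcription factor that MyD88 activates from endosomes and that interferon induces, was 17.8-fold higher in monocyte-like, 14.2-fold higher in mature neutrophil-like and 10.5-fold higher in mature B-like cells. Slc15a3, an endolysosomal transporter, was 9.16-fold higher in monocyte-like and 21.3-fold higher in immature neutrophil-like cells.

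Negative regulators and target genes of Toll-like receptor signalling were called higher in more than 50% of measured cases in mature neutrophil-like and monocyte-like cells. Of all measured genes, 24.5% were called higher and 13% lower in mature neutrophil-like cells, and 12.5% and 19.8% in monocyte-like cells. Among negative regulators, 11 of 13 were called higher and 0 lower in mature neutrophil-like cells (median log2 ratio 2.38 against 0.28 over all genes) and 10 higher and 1 lower of 13 in monocyte-like cells (1.51 against -0.17). Nfkbia, the inhibitor that NF-kB itself induces, was 6.61-fold higher in monocyte-like and 5.22-fold higher in mature neutrophil-like cells. Socs1, an inhibitor of cytokine and interferon signalling, was 42.7-fold and 37.9-fold higher. Of the target genes, 10 of 13 were called higher in monocyte-like cells (median 3.94) and 10 of 14 in mature neutrophil-like cells (median 3.28, 1 lower). In immature neutrophil-like cells 5 of 9 target genes were called higher, beside 8.29% of all genes. In those with both stages 5 of 10 were, beside 18.6%. The chemokine gene Cxcl2 was 18.3-fold higher in mature neutrophil-like cells, and Acod1, the enzyme that makes itaconate, had 783 UMIs against 0 in monocyte-like cells, at least 538-fold higher.

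Fewer target genes were measured outside myeloid cells. In mature B-like cells 1 of 4 measured target genes, Ccl5, was called higher, where 8.69% of all genes were. The list median was 0.01 against -0.10 over all genes, although Tlr7 and Myd88 were called higher there. Nfkb1 and Rel, NF-kB subunits, had ratios of 0.839 and 0.844 in these cells. Other pattern recognition receptors showed 9 of 11 called higher and 0 lower in monocyte-like cells (median 1.42), where 12.5% and 19.8% of all genes were. One of the higher genes was the formyl peptide receptor Fpr2, at 38.6-fold. In mature neutrophil-like cells 2 were higher and 2 lower of 9 (median 0.25 against 0.28 over all genes), a share of higher calls near the 24.5% of all genes.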

How the data were processed

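The deposited files hold raw UMI counts per gene and barcode for 2 libraries; the authors made them with Cell Ranger 3.0 on mm10, per the submitters' processing notes, which also name Seurat, and per the file headers with software version 3.1.0. No source used here says whether counting used the strand. Of 4281 null-labelled and 12764 control-labelled barcodes, cells with at least 200 genes and at most 10% mitochondrial UMIs were kept (1307 and 3479 removed). Scrublet scores were computed per library and the highest-scoring cells removed at a rate of 0.8% for each 1000 cells (71 and 690). The libraries shared 11 deposited barcodes.

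Cells of both libraries were clustered together with scanpy 1.11.5 and leidenalg 0.10.2 (Python 3.11.15) on 2000 variable genes and 30 components, without the 8 members, at resolution 1, and each cluster was split again at 0.5, giving 37 clusters that fell into 106 sub-clusters. Names came from fixed markers by a scoring rule set after the data were seen. UMIs were summed per library and class and given as CPM; intervals (scipy 1.17.1) are exact Poisson for CPM, Clopper-Pearson for shares and conditional binomial for ratios, at 95%, and cover counting error only. A value of 0 was set against a floor of 3 UMIs. Thinned values draw 1000 UMIs per cell, leaving out 69 and 193 shallower cells. The computation was tested on simulated data.

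The text names the 8 members, per gene list and class the 2 measured genes of highest CPM and the 2 of largest absolute log2 ratio, and per member the 3 genes most alike by Pearson correlation of log2(CPM + 10) in both libraries, among genes at 50 CPM or more in a class of each. Leading genes of unnamed sub-clusters, and genes used to check labels, fall outside that rule and were chosen after their values were seen. The members and lists were chosen with earlier results of these data known. Alternatives changed the cell filter, doublet removal, clustering, scaling (TMM factors from edgeR 4.0.16 in R 4.3.3), depth, free RNA, the CPM minimum, the 5 highest cells and the weighting of cells. The class makeup of the control-labelled library was added as an alternative after the data were seen.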

Additional observations from a re-analysis of the deposited data

How the results depend on the processing

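No paired analysis was possible because each group is 1 library, and no replicate could be left out. Of 310 log2 ratios recomputed under alternatives for 34 measured ratios, 44 moved by more than their counting interval and no called ratio changed sign. With cells thinned to 1000 UMIs, the members called higher fell to 1 in mature neutrophil-like cells, 1 in monocyte-like cells, 1 in neutrophil-like cells with both stages, and 0 in B precursor-like, mature B-like, T-like and erythroid-like cells, where fewer UMIs put members under the minimum of 30. With at most 5% mitochondrial UMIs, 0 were called higher in T-like cells, where the Myd88 log2 ratio was 1.59. With free RNA subtracted, 2 were called higher in B precursor-like cells, and 1 was called lower in monocyte-like cells and 1 in neutrophil-like cells with both stages. Without the 5 cells with most UMIs of a gene, 0 were called higher in B precursor-like cells and 1 was called lower in mature neutrophil-like cells. With TMM factors 1 was called lower in mature neutrophil-like cells (Tlr4, log2 ratio -1.02) and 1 in neutrophil-like cells with both stages, as also with a mean over cells, which gave 1. Without a minimum CPM 1 was called lower in immature neutrophil-like cells. The cause was not tested beyond the lower depth after thinning. The share of all genes called under each alternative is not given here, so these counts describe the members only. The log2 ratio of Cd14 stayed between 5.61 and 6.27 in mature neutrophil-like and between 2.51 and 3.07 in monocyte-like cells under the alternatives run. Depth limits Tlr9 and Tlr4 most, with 10 and 98 UMIs in the null-labelled library.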

Other observations

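Sub-clusters that the marker rule left unnamed also held members, and they entered no class. Null-labelled sub-cluster 15.1, of 119 cells with Mzb1, Cd200 and Cd83 among its leading genes, held Tlr7 at 56.6 CPM and Myd88 at 34.5 CPM, with Tlr13 at 0. Null-labelled sub-cluster 20.2, of 39 cells led by Vdr, H2-Eb1, Ccl22 and Ccr7, held Myd88 at 119 CPM, Cd14 at 46.2 CPM, Tlr13 at 46.2 CPM, and both Tlr2 and Tlr7 at 27.0 CPM. The 10 unnamed control-labelled sub-clusters of at least 20 cells held at most 9.55 CPM of Cd14 and 0.412 CPM of Tlr7.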
